A study of Mus musculus with 77 samples.

Results

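The 8 genes described here, Notch2, Trim66, Rapgef3, Igfbp5, Hadh, Zkscan16, 2900026A02Rik and Fam117a, were among those with the largest falls under levodopa in direct pathway spiny projection neurons (dSPN). They were chosen by the mean log2 value at the high or low dose of levodopa minus that in lesioned mice given saline, and they stand for 8 of 18194 genes measured and 8 of 13271 genes tested. Every difference that uses the levodopa or saline arrays of lesioned dSPN is therefore a description without a test. The same genes in indirect pathway spiny projection neurons (iSPN), whose values took no part in the choice, carry the tests. The SE and p-value of each test rest on a variance pooled over all arrays. The lesioned dSPN arrays that chose the genes thus enter that variance, and the tests are not fully free of the choice.

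Each of 77 arrays profiled messenger RNA bound to tagged ribosomes from 1 male mouse of 9 to 14 weeks on the C57BL/6J background. The tag, EGFP-L10a, was driven by Drd1 (line CP73, dSPN) or Drd2 (line CP101, iSPN) from a bacterial artificial chromosome transgene, so the purified RNA is from cells that express the transgene, and each pathway rests on a single line. Lesioned mice received 6-OHDA, a toxin of dopamine neurons, at 3.2 µg/µl in the right medial forebrain bundle and were kept if behaviour showed a successful lesion. The dorsal striatum of the injected side was taken after a course of daily injections.

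In dSPN, 11 lesioned mice received saline, 12 the low dose of levodopa and 11 the high dose, and 10 mice had a mock lesion (vehicle alone) and saline. In iSPN the same groups held 7, 8, 8 and 10 mice. The low-dose course began at 1 mg/kg (days 1 to 3), continued at 2 mg/kg (days 4 to 9) and was meant to restore limb use. The high-dose course used 3 mg/kg and then 6 mg/kg over those days and was meant to bring on severe dyskinesia, the involuntary movements of long levodopa treatment. Levodopa was always given with benserazide at 12 mg/kg, which blocks its conversion outside the brain. The low-dose, high-dose and lesioned saline groups thus share the lesion, and the mock groups differ from them in lesion as well as drug.

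The lines matched their labels. Drd1 averaged 11.80 in mock-lesioned dSPN and 10.07 in mock-lesioned iSPN, and Drd2 averaged 7.55 and 12.42 in the same order of lines. Array medians lay between 4.31 and 4.42, and no arrays held identical values. The titles fall into 7 runs of rising animal numbers, whose meaning the labels do not give. No run holds both lines, and none holds both low-dose and lesioned saline dSPN, so dose and run cannot be told apart there except through mock arrays and high-dose arrays that bridge the runs. All values are log2 expression, and the number of arrays limits their precision. In such bulk samples fewer cells of a type and less RNA per cell cannot be told apart.

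The members come from unlike parts of the cell. Notch2 is a receptor at the cell surface that is cut when a neighbour's ligand binds, and its freed inner part joins the DNA-binding protein Rbpj to switch genes on. Rapgef3 (Epac1) is opened by cyclic AMP, the messenger that D1 dopamine receptors raise, and then loads the small GTPase Rap1 with GTP. Igfbp5 is secreted and binds insulin-like growth factors, Hadh is a mitochondrial enzyme of fatty acid oxidation, and Trim66 belongs to the TIF1 family of chromatin-bound corepressors. Zkscan16 encodes a zinc finger protein with KRAB and SCAN domains.

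Promoter windows are shown for the genes with the deepest mean falls at the high dose, to set them beside the cyclic AMP and activity elements that levodopa-responsive genes are known for. Each runs from 250 bases before the gene start to 50 after it, 5′ to 3′ on the gene's strand, as given by RefSeq on GRCm38.p6. Notch2 lies at chr3:98013288-98013587 on the plus strand, Trim66 at chr7:109508085-109508384 on the minus strand and Rapgef3 at chr15:97767617-97767916 on the minus strand. Capitals mark the letters TGACG, the short form of the cyclic AMP response element.
Notch2 promoter: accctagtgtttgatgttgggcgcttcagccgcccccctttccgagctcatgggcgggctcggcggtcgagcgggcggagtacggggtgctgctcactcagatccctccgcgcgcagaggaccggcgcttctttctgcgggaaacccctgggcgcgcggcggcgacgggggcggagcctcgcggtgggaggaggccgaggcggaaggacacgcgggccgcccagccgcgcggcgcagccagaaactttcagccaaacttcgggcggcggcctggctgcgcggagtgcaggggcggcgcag
Trim66 promoter: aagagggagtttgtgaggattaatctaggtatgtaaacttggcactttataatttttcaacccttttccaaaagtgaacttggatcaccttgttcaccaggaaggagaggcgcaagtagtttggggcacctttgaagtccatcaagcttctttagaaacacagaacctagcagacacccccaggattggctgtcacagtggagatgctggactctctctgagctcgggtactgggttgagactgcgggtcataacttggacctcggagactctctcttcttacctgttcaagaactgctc
Rapgef3 promoter: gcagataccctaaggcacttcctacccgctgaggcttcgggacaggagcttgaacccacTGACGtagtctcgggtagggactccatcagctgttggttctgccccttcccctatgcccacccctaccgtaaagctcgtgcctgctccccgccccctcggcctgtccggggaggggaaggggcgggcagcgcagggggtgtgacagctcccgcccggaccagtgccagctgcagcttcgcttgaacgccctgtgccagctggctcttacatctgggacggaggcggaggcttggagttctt

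Rapgef3 held the only match among the members, TGACG on the plus strand of the window, starting at position -191 from the gene start. The table gave 8 windows for 7 members, with 2 for 2900026A02Rik. None of the 8 held the full element TGACGTCA, the AP-1 site TGANTCA, the Nr4a site AAAGGTCA, the Egr site GCGNGGGCG, the Rbpj site TGGGAA or the E-box CACGTG on either strand. A full element contains the short form, so those matches overlap. Of all 32851 windows of this length, 20.8% held TGACG, 1.79% the full element, 7.81% the AP-1 site, 1.51% the Nr4a site, 5.55% the Egr site, 25.6% the Rbpj site and 7.15% the E-box. A window without a match shows only that these letters are not in it.

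All 8 members were lower under levodopa in lesioned dSPN at both doses, as their choice requires. At the high dose the differences from lesioned saline spanned -2.78 (Notch2) to -2.35 (Fam117a), median -2.52, and at the low dose -2.20 (Igfbp5) to -1.64 (Zkscan16), median -1.83. On the linear scale the high-dose levels were 5.09 to 6.89 times lower and the low-dose levels 3.12 to 4.60 times lower. The deepest high-dose falls, in Notch2 and Trim66, ended at medians (3.53 and 3.14) below the filter on low values (3.55). The median difference over all genes tested was -0.04 at each dose. Trim66, Zkscan16 and 2900026A02Rik, 3 of 8 members, had every levodopa array below every saline array at either dose, against 5.05% of all genes at the high dose and 1.67% at the low dose. The other members overlapped with saline at both doses.

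**Figure D1:**
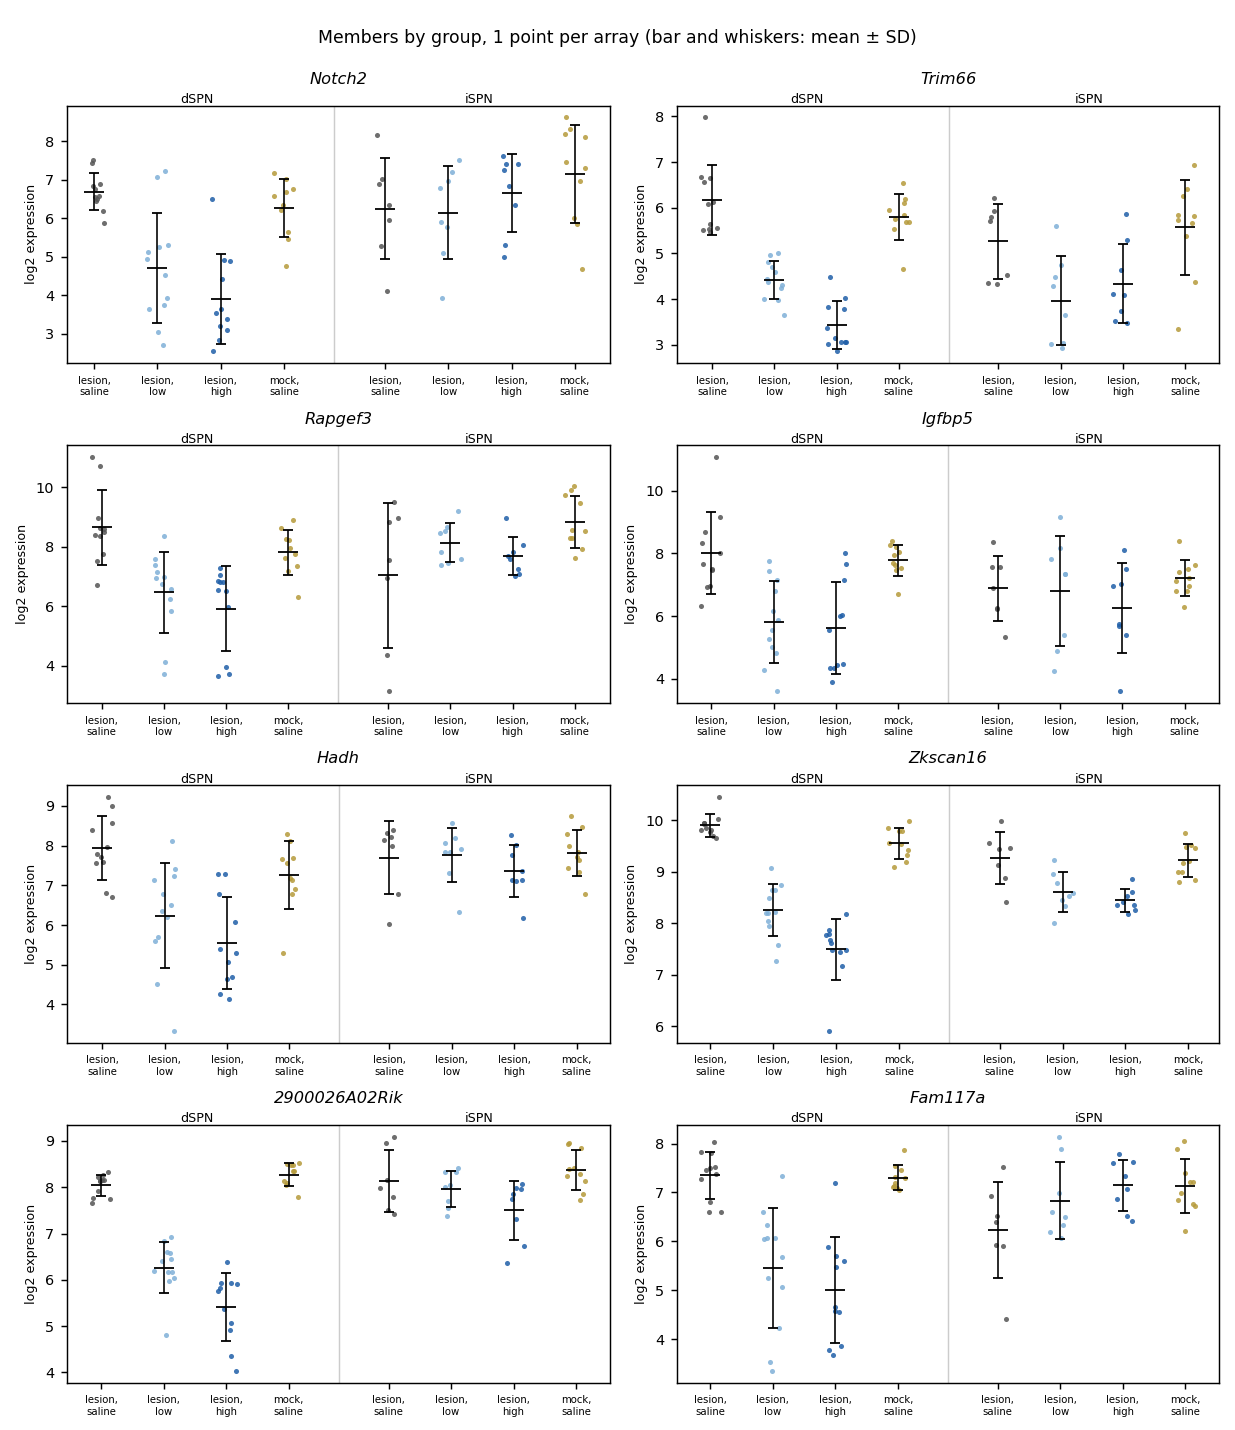
Log2 expression of each member on every array (points), with the group mean and SD (bar and whiskers), for lesioned saline, lesioned low dose, lesioned high dose and mock-lesioned saline groups of dSPN (left) and iSPN (right); each panel has its own scale. In dSPN the levodopa arrays of Zkscan16, Trim66 and 2900026A02Rik lie wholly below the lesioned saline arrays, while Rapgef3, Igfbp5, Hadh, Notch2 and Fam117a overlap.

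With each gene standing as its probe set of highest mean, the members fill most of the head of the ranking. At the high dose they held ranks 1 to 4 and 6 to 9, with Ddit4l, an inhibitor of mTOR signalling, at rank 5 (-2.55) and not among them. Just inside the choice stood Fam117a at -2.35, and just outside stood Cdh10 (-2.28), Igfbp4 (-2.28) and Fxyd7 (-2.24). At the low dose only Igfbp5 and Rapgef3 held ranks 1 and 2, followed by Plpp3 (-2.08) and S1pr5 (-2.04), which are no members, and Zkscan16 stood at rank 21. The choice thus follows the high dose more closely than the low dose.

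Notch2, the receptor, had the deepest mean fall at the high dose and a wide spread. It lay between 5.88 and 7.51 (median 6.57) in lesioned dSPN given saline, between 2.71 and 7.23 (median 4.73) at the low dose and between 2.54 and 6.50 (median 3.53) at the high dose. All but 2 low-dose arrays of 12 and all but 1 high-dose array of 11 fell below the lowest saline array, and the exceptions read as high as saline. The differences from lesioned saline were -1.98 (SE 0.46) at the low dose and -2.78 (SE 0.47) at the high dose. The high-dose median lies below the filter on low values (3.55). In lesioned iSPN it lay between 4.12 and 8.17 (median 6.34) with saline, between 3.93 and 7.51 (median 6.34) at the low dose and between 4.98 and 7.62 (median 7.04) at the high dose, so the iSPN groups covered the same range. A second probe set, 1451889_at, differed by only -0.36 at the low dose and -0.32 at the high dose in dSPN. Its mean was 4.85 in high-dose dSPN and 5.17 in lesioned saline dSPN, so the size of the Notch2 fall rests on 1455556_at.

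Rapgef3, the cyclic AMP-gated exchange factor, lay between 6.72 and 11.01 (median 8.50) in lesioned dSPN given saline, between 3.71 and 8.36 (median 6.85) at the low dose and between 3.64 and 7.27 (median 6.54) at the high dose. Every levodopa array read below the saline median, but only 5 of 12 low-dose and 6 of 11 high-dose arrays read below the lowest saline array. The differences were -2.18 (SE 0.52) and -2.73 (SE 0.53) at the low and high dose. In lesioned iSPN the medians were higher under levodopa, with overlapping ranges of 3.14 to 9.51 (median 7.55) with saline, 7.37 to 9.20 (median 8.13) at the low dose and 7.02 to 8.96 (median 7.64) at the high dose. The lesioned saline iSPN group had the widest spread of any group for this gene (SD 2.44). Rapgef3 has 5 probe sets, and 1438590_at, at a mean of 2.61, did not pass the filter on low values. Their high-dose differences in dSPN were -2.73 (1424470_a_at, the one used), -1.59, -0.59, -0.51 and, for the dim one, 0.13, so the probe sets disagree on the size.

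Igfbp5, the secreted binding protein, lay between 6.31 and 11.07 (median 7.68) in lesioned dSPN given saline, between 3.61 and 7.76 (median 5.72) at the low dose and between 3.89 and 8.02 (median 5.56) at the high dose. Both doses reached almost the same level, with differences of -2.20 (SE 0.50) at the low dose and -2.39 (SE 0.51) at the high dose. In each dose group 8 arrays lay below the lowest saline array and the rest overlapped. In lesioned iSPN it lay between 5.32 and 8.37 (median 6.89) with saline, between 4.24 and 9.16 (median 7.35) at the low dose and between 3.61 and 8.10 (median 6.35) at the high dose, again over one range. Its second probe set, 1452114_s_at, differed by -2.02 and -2.67 at the low and high dose in dSPN. For Igfbp5 both probe sets thus showed falls of like size.

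Hadh, which carries out the third step of mitochondrial fatty acid oxidation, lay between 6.70 and 9.23 (median 7.78) in lesioned dSPN given saline, between 3.33 and 8.13 (median 6.42) at the low dose and between 4.14 and 7.29 (median 5.30) at the high dose. Of 12 low-dose arrays 7 and of 11 high-dose arrays 8 lay below the lowest saline array. The differences were -1.70 (SE 0.38) and -2.40 (SE 0.39) at the low and high dose. In lesioned iSPN the ranges were 6.04 to 8.39 (median 8.15) with saline, 6.34 to 8.57 (median 7.88) at the low dose and 6.17 to 8.27 (median 7.24) at the high dose, which overlap throughout. The other probe sets, 1460184_at and 1436756_x_at, differed by -1.18 and -1.83 at the high dose in dSPN, so all 3 were lower.

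Trim66, the TIF1 family corepressor, separated both levodopa groups of dSPN fully from lesioned saline, while the low and high dose overlapped. It lay between 5.46 and 7.98 (median 6.09) in lesioned dSPN given saline, between 3.66 and 5.0 (median 4.403) at the low dose and between 2.85 and 4.48 (median 3.14) at the high dose. Its differences were -1.74 (SE 0.31) and -2.74 (SE 0.31) at the low and high dose, and the high-dose values lie below the filter on low values (3.55) in part. In lesioned iSPN it lay between 4.32 and 6.22 (median 5.70) with saline, between 2.93 and 5.61 (median 3.96) at the low dose and between 3.47 and 5.85 (median 4.10) at the high dose. Unlike in dSPN the levodopa groups overlapped with saline, though 5 of 8 arrays at each dose lay below the lowest saline array.

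Zkscan16, the KRAB and SCAN zinc finger gene, also separated both levodopa groups of dSPN fully from lesioned saline, while the low and high dose overlapped. It lay between 9.66 and 10.45 (median 9.84) in lesioned dSPN given saline, between 7.27 and 9.08 (median 8.21) at the low dose and between 5.91 and 8.18 (median 7.62) at the high dose. The differences were -1.64 and -2.41 (SE 0.17 each) at the low and high dose, and no levodopa array reached the lowest saline array. In lesioned iSPN it lay between 8.41 and 9.98 (median 9.43) with saline, between 8.0 and 9.23 (median 8.56) at the low dose and between 8.19 and 8.87 (median 8.39) at the high dose. Every levodopa array of iSPN was below the saline median, but the groups overlapped.

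The transcript 2900026A02Rik, a gene named only by its clone, lay between 7.65 and 8.33 (median 8.14) in lesioned dSPN given saline, between 4.81 and 6.92 (median 6.30) at the low dose and between 4.03 and 6.37 (median 5.76) at the high dose. The groups did not overlap with saline, and the differences were -1.78 and -2.64 (SE 0.21 each) at the low and high dose. In lesioned iSPN it lay between 7.42 and 9.09 (median 7.98) with saline, between 7.39 and 8.42 (median 8.04) at the low dose and between 6.37 and 8.07 (median 7.80) at the high dose. These ranges overlapped, though 3 of 8 high-dose arrays and 1 of 8 low-dose arrays lay below the lowest saline array. The second probe set, 1443916_at, differed by only -0.72 at the high dose in dSPN and by -0.69 in iSPN.

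Fam117a lay between 6.61 and 8.03 (median 7.45) in lesioned dSPN given saline, between 3.35 and 7.33 (median 5.87) at the low dose and between 3.68 and 7.19 (median 4.65) at the high dose. All but 1 array at each dose lay below the lowest saline array. The differences were -1.89 (SE 0.33) and -2.35 (SE 0.34) at the low and high dose. In lesioned iSPN the medians were higher under levodopa, with ranges of 4.41 to 7.53 (median 6.41) with saline, 6.06 to 8.14 (median 6.54) at the low dose and 6.41 to 7.78 (median 7.20) at the high dose. No high-dose array of iSPN lay below the saline median.

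**Figure D2:**
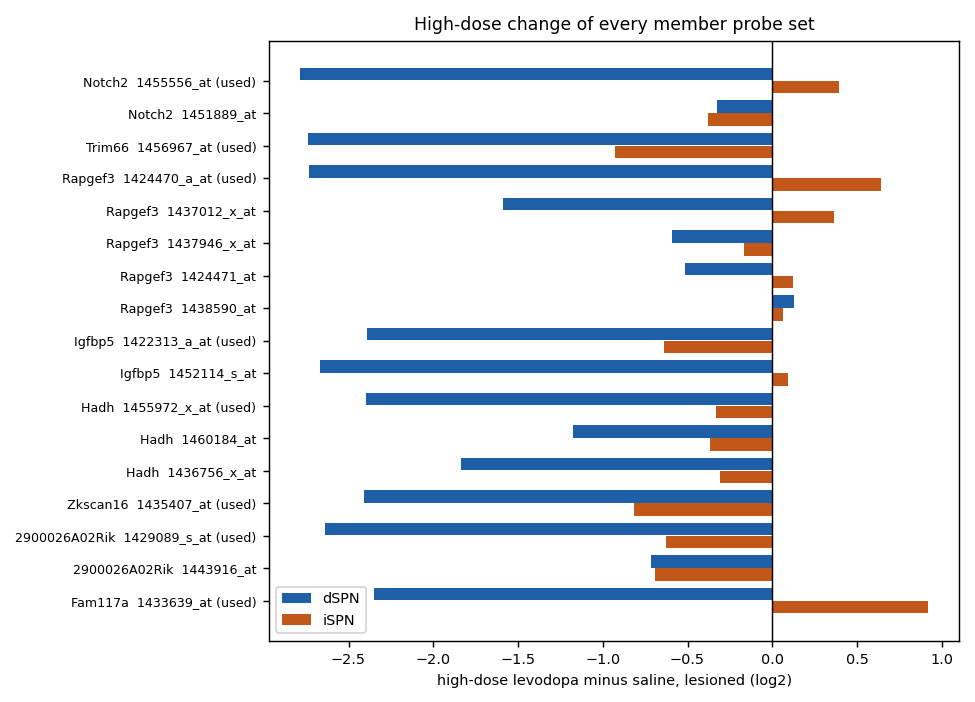
High-dose minus saline difference (log2) in lesioned dSPN (upper bar of each pair) and lesioned iSPN (lower bar) for all 17 probe sets of the members; "used" marks the probe set that stands for the gene. In dSPN 16 of 17 probe sets were lower at the high dose, with the smallest falls in the second probe sets of Notch2 and 2900026A02Rik and in 2 of Rapgef3.

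Of the 17 probe sets, 16 passed the filter on low values, and 16 were lower in dSPN at the high dose and 16 at the low dose. With the mean of a gene's probe sets the high-dose differences from lesioned saline in dSPN spanned -2.74 (Trim66) to -1.06 (Rapgef3). At the low dose they then spanned -2.11 (Igfbp5) to -0.80 (Rapgef3). The dose step was smaller than the step from saline. High minus low dose in dSPN was negative for all 8 members, with a median of -0.73, while 49.7% of all genes were lower. The members were chosen as low on these arrays, more closely at the high dose, so the sign is partly set by the choice. One run held 9 of the 11 high-dose arrays and another 11 of the 12 low-dose arrays, so dose and run are largely joined here. By gene, the step varied. High minus low was -0.998 (SE 0.31) for Trim66, -0.86 (SE 0.21) for 2900026A02Rik and -0.76 (SE 0.17) for Zkscan16, and -0.19 (SE 0.50) for Igfbp5.

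The next comparison sets lesioned against mock-lesioned mice, both given saline. Lesioned saline minus mock in dSPN was positive for 7 of 8 members, with a median of 0.36, and reached 0.84 (SE 0.54) for Rapgef3 and 0.68 (SE 0.40) for Hadh, while 2900026A02Rik differed by -0.23 (SE 0.22). Within the run that held 5 lesioned and 4 mock arrays the differences were larger for Hadh (1.41), Rapgef3 (1.15), Notch2 (0.82) and Trim66 (0.77). There Zkscan16 differed by 0.30, Fam117a by 0.19, Igfbp5 by -0.16 and 2900026A02Rik by -0.24. With run as a fixed block over all arrays the differences were 0.98 for Hadh and 0.12 for Rapgef3. The size thus depends on the runs, as does the sign for Igfbp5 and Fam117a. These saline arrays took part in the choice of genes, so the direction is not independent of it. Against mock-lesioned dSPN the members were lower in low-dose dSPN by a median difference of -1.46 and in high-dose dSPN by -2.23. The levodopa arrays are those on which the genes were selected as low, so these differences are partly set by the choice as well. The transcript 2900026A02Rik averaged 5.41 ± 0.73 in high-dose dSPN (SD, n = 11) and 8.28 ± 0.25 in mock-lesioned dSPN (SD, n = 10).

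The comparisons in iSPN asked whether the same genes were lower where the tag marked the other pathway. At the high dose 5 of 8 members were lower than in lesioned saline and 3 were higher, with a median of -0.48, against 0.01 over all genes. One of them passed the test: Zkscan16 fell to 8.45 ± 0.22 in high-dose iSPN (SD, n = 8), against 9.27 ± 0.51 in lesioned saline iSPN (SD, n = 7), a difference of -0.82 (SE 0.21, adjusted p = 0.00534). That is 1 of 8 members, where 3.59% of all genes fell and 6.27% rose. Trim66 (-0.93, SE 0.38, adjusted p = 0.108), 2900026A02Rik (-0.63, SE 0.26, adjusted p = 0.114) and Fam117a (0.92, SE 0.41, adjusted p = 0.156) had an unadjusted p under 0.05 but did not pass. With Zkscan16, 4 of 8 members had such a p, against 23.2% of all genes. Within the run that held both groups the Trim66 difference was -0.09 and that of Fam117a 0.43, and with run as a fixed block they were -0.45 and 0.19. No member's high-dose arrays lay wholly below its saline arrays, as did 0.354% of all genes.

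At the low dose Trim66 was the member that passed. It fell to 3.97 ± 0.97 in low-dose iSPN (SD, n = 8), against 5.27 ± 0.82 in lesioned saline iSPN (SD, n = 7), a difference of -1.30 (SE 0.38, adjusted p = 0.032). Among all genes 1.77% fell and 2.41% rose at this dose, and 0.166% had every low-dose array below every saline array, which no member did. Zkscan16 missed the threshold (-0.65, SE 0.21, adjusted p = 0.0549), with all 8 low-dose arrays below the saline median. The median over the members was -0.10, and Rapgef3 (1.09, SE 0.64) and Fam117a (0.61, SE 0.41) had positive differences with adjusted p of 0.388 and 0.487. With run as a fixed block these were 0.53 for Rapgef3 and 1.02 for Fam117a.

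**Figure D3:**
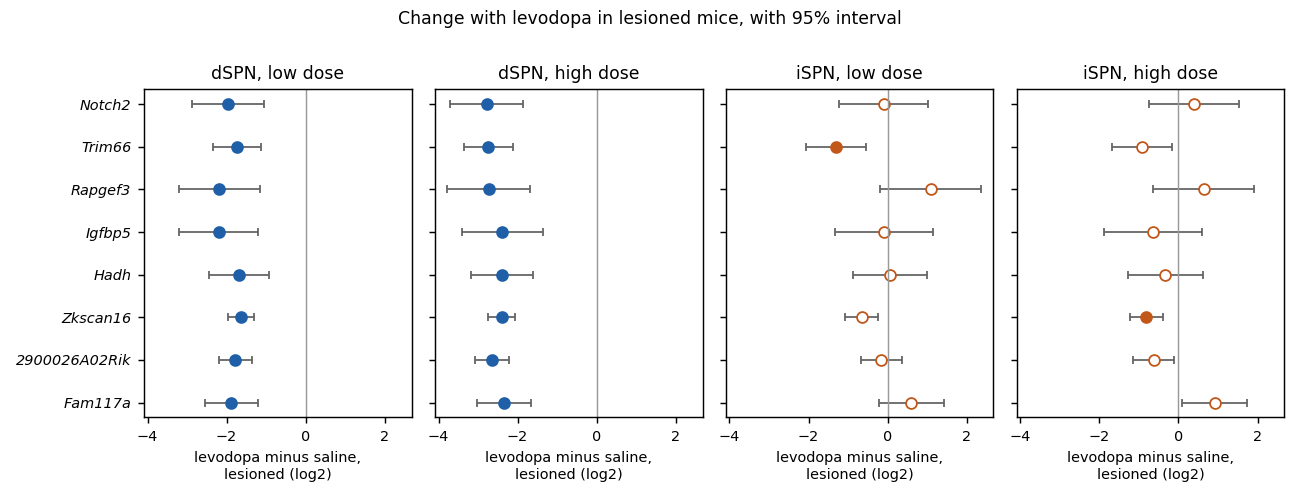
Levodopa minus saline difference (log2) of each member in lesioned mice with its 95% interval, for dSPN at the low and high dose and iSPN at the low and high dose; filled points in iSPN passed the test at adjusted p under 0.05, and the dSPN points are descriptions of the genes chosen on them. In iSPN only Trim66 at the low dose and Zkscan16 at the high dose are filled, and Rapgef3 and Fam117a lie right of 0 at both doses.

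The runs touch both calls. With run as a fixed block the Zkscan16 difference at the high dose was -0.79 and did not pass (adjusted p = 0.17), while within the run that held 8 high-dose and 2 saline arrays it was -1.003 (adjusted p = 0.0405). For Trim66 at the low dose the block gave -1.48 (adjusted p = 0.0509), as did the run that held 8 low-dose and 4 saline arrays (-1.48, adjusted p = 0.349). A fit on the iSPN arrays alone, which keeps the dSPN arrays that chose the genes out of the variance, did not pass for Trim66 (adjusted p = 0.19). At the high dose 1 of 8 members passed in such a fit. Over all genes such fits gave 577 calls at the high dose, against 1309 with the pooled variance. At the low dose they gave 153, against 555. Zkscan16 passed in all 15 fits that left out 1 array of the groups compared, with adjusted p from 0.00116 to 0.0255. Trim66 passed in 7 of 15, with adjusted p from 0.00692 to 0.0838. The Trim66 call thus depends on single arrays, and the Zkscan16 call held in each of these fits.

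No member passed between the doses in iSPN, where 0.173% of all genes did, and no member had an unadjusted p under 0.05, against 10.5% of all genes. Lesioned saline against mock in iSPN gave 0 calls among the members as well, against 6.2% of all genes. An unadjusted p under 0.05 was found for 2 of 8 members and for 18.6% of all genes. Rapgef3 was at 7.04 ± 2.44 in lesioned saline iSPN (SD, n = 7) and 8.83 ± 0.88 in mock-lesioned iSPN (SD, n = 10), a difference of -1.79 (SE 0.61, adjusted p = 0.0643). It passed in 4 of the 17 fits that left out 1 array. Fam117a differed by -0.90 (SE 0.39, adjusted p = 0.186). The comparisons of lesion and of levodopa in iSPN share the lesioned saline arrays.

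No member passed the test between the lines in mock-lesioned mice. Of 8 members 0 were called in dSPN against iSPN, while 22.5% of all genes were called. At an unadjusted p under 0.05 there were 0 members, against 33.2% of all genes. Notch2 lay between 4.76 and 7.17 in mock-lesioned dSPN and between 4.68 and 8.62 in mock-lesioned iSPN, a difference of -0.89 (95% interval -1.86 to 0.09). For Rapgef3 the difference was -1.02 (-2.12 to 0.09), with 6.30 to 8.91 in dSPN and 7.60 to 10.05 in iSPN. Zkscan16 differed by 0.33 (-0.03 to 0.69) and 2900026A02Rik by -0.11 (-0.55 to 0.34). These intervals are wide for all but the last 2 genes, and line and run cannot be told apart.

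Most oligodendrocyte and astrocyte markers fell in dSPN as well. Of all genes, 25.5% fell there at the high dose and 19% at the low dose. Of 9 microglia markers, 1 rose and 1 fell at each dose, with medians of -0.17 at the high dose and -0.30 at the low dose. Of 14 oligodendrocyte markers tested, 12 fell at the high dose (median -1.25) and 11 at the low dose (median -0.99), among them the myelin gene Mal by -1.74 (SE 0.22, adjusted p = 6.45e-10) and the lineage factor Sox10 by -1.62 (SE 0.32, adjusted p = 1.71e-05) at the high dose. Of 12 astrocyte markers, 8 fell at the high dose (median -0.80) and 7 at the low dose (median -0.70). In iSPN no oligodendrocyte or astrocyte marker was called at either dose against lesioned saline. The oligodendrocyte median at the high dose was -0.41 there. Against mock-lesioned iSPN, 8 of 14 oligodendrocyte markers (median -0.66) and 1 of 12 astrocyte markers (median -0.26) fell at the high dose. The mean of the oligodendrocyte markers lay between 6.66 and 7.89 in lesioned saline dSPN, between 5.54 and 6.70 at the low dose and between 5.44 and 6.60 at the high dose. For the astrocyte markers the ranges were 6.90 to 7.52 with saline, 6.23 to 7.14 at the low dose and 6.09 to 7.00 at the high dose. The oligodendrocyte range of the high dose lay wholly below that of saline, as it did for 3 members. Of 5 iSPN markers, 4 also fell in dSPN at the high dose and 1, Penk, rose by 0.48 (SE 0.06, adjusted p = 3.36e-10). Of 9 dSPN markers, 4 fell and 2 rose in dSPN at that dose. No value on these arrays is 0.

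**Figure D4:**
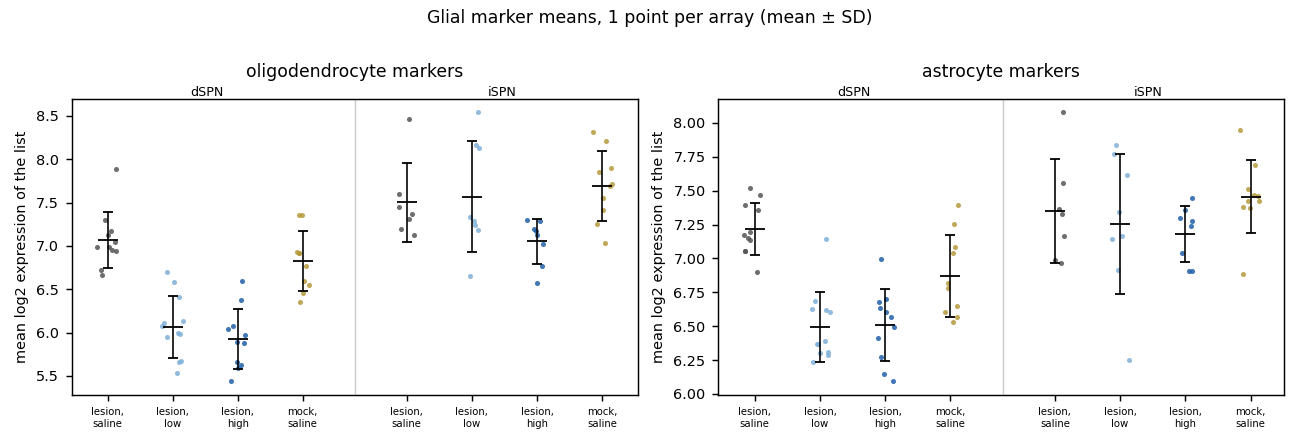
Mean log2 expression of the 14 oligodendrocyte markers (left) and 12 astrocyte markers (right) on every array, with the group mean and SD, for lesioned saline, lesioned low dose, lesioned high dose and mock-lesioned groups of dSPN and iSPN. In dSPN both means are lower on average at the low and high dose. Only the high-dose oligodendrocyte range of dSPN lies wholly below that of lesioned saline. The other dose groups of dSPN overlap with saline, and the iSPN groups overlap.

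With both marker means as covariates the dSPN differences of all 8 members were negative, and at the high dose they spanned -2.91 (2900026A02Rik) to -1.32 (Igfbp5). At the low dose they spanned -2.26 (Fam117a) to -1.15 (Notch2). The members were chosen as low on these arrays, and the marker means differ between the same groups. These differences are therefore a description, and a link to the markers was not tested by them. Within groups the 16 relations between a member and a marker mean had r from -0.19 to 0.31 over 77 arrays, taken on deviations from group means. None passed a permutation test of r after Benjamini-Hochberg adjustment over the 16, and 6 had a raw p under 0.05. The highest was Igfbp5 with the astrocyte mean (r = 0.31, permutation p = 0.0139, adjusted p = 0.0998; rho = 0.34, permutation p = 0.0051, adjusted p = 0.0642), at r = 0.25 without the 2 farthest arrays, 0.13 in dSPN and 0.48 in iSPN.

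The runs bear on the dSPN values too. With run as a fixed block the high-dose differences in dSPN spanned -2.88 (Notch2) to -1.97 (Hadh) and the low-dose ones -2.49 (Igfbp5) to -0.87 (Fam117a), all 8 lower at each dose. Within the run that held 9 high-dose and 6 lesioned saline arrays, the differences were -2.74 for Notch2, -2.51 for Trim66, -1.97 for Rapgef3, -2.82 for Igfbp5, -1.70 for Hadh, -2.37 for Zkscan16, -2.61 for 2900026A02Rik and -1.84 for Fam117a. The block left Rapgef3 at -0.98 and Fam117a at -0.87 at the low dose, against -2.18 and -1.89 without it, and no run held both of those groups.

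Relations between the members from mouse to mouse were weak with both lines pooled. Over the 28 pairs, deviations from group means correlated at r from -0.21 to 0.33 (median 0.10), 20 of them positive, and 0 of 28 passed a permutation test of r after adjustment over the pairs (4 had a raw p under 0.05). Notch2 and Zkscan16 had the highest r (0.33, permutation p = 0.0119, adjusted p = 0.226; rho = 0.31, permutation p = 0.0115, adjusted p = 0.161). It was 0.35 without the 2 farthest arrays, 0.22 in dSPN, 0.49 in iSPN and 0.34 with run means removed. Across the pairs in iSPN alone, r ran from -0.47 (Igfbp5 with 2900026A02Rik) to 0.50 (Trim66 with Hadh), which was not tested. Rapgef3 and Zkscan16 passed by rank only (rho = 0.44, permutation p = 0.00021, adjusted p = 0.00588; r = 0.31, permutation p = 0.0203, adjusted p = 0.226), at r = 0.30 in dSPN and 0.34 in iSPN, with 0.30 without the 2 farthest arrays and 0.33 with run means removed.

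**Figure D5:**
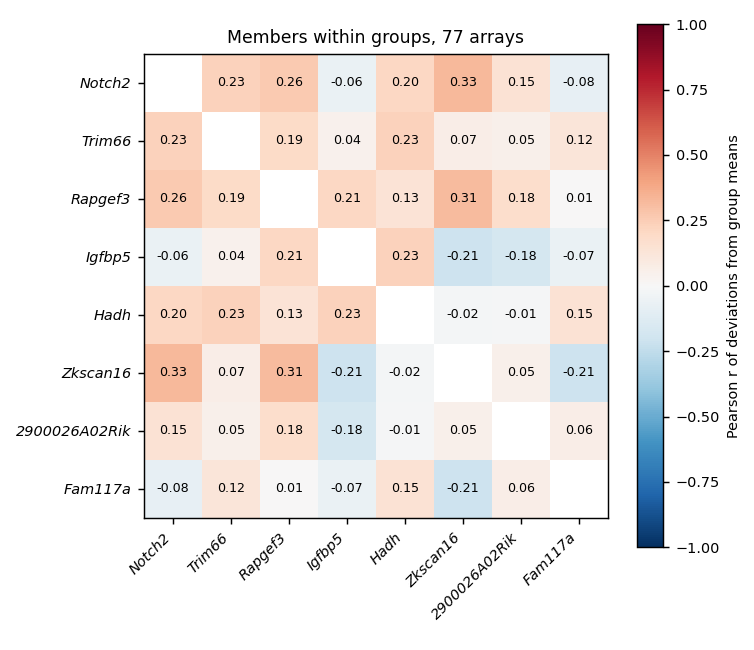
Pearson r between each pair of members over 77 arrays, on deviations from the group means, so that differences between groups do not enter; colour and figures give r, from -1 (blue) to 1 (red). No pair exceeds 0.33, and 20 of 28 are positive.

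Across all 77 arrays, group differences included, the most similar genes were as follows, given as a description. Zkscan16 was nearest to Bcl7a (r = 0.86), a subunit of the SWI/SNF chromatin remodeller, and Kalrn (0.84). The transcript 2900026A02Rik was nearest to Dbp (0.86), a transcription factor of the circadian output, and Sphk2 (0.86), a sphingosine kinase that was also nearest to Fam117a (0.74). Notch2 was nearest to Zfp462 (0.75), Trim66 to St6galnac5 and Bcl7a (0.74 each), Hadh to Oga (0.73), Rapgef3 to Phf2 (0.67) and Igfbp5 to Ankrd12 (0.62). These points share arrays, runs and group means.

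Genes of the pathways around the members were counted from lists. The counts leave out the members, and the background in dSPN was 25.5% lower and 20.1% higher at the high dose, and 19% lower and 15.1% higher at the low dose. Of 30 Notch pathway genes 3 rose and 1 fell at the high dose, and 2 rose and 3 fell at the low dose. The partner of the cut receptor, Rbpj, rose by 1.44 (SE 0.16, adjusted p = 2.3e-12) and the target gene Hey1 by 1.02 (SE 0.07, adjusted p = 3.65e-22) at the high dose, while the ligand Jag2 differed by -0.65 (SE 0.17, adjusted p = 0.00112). The list median was -0.07, against -0.04 over all genes. In iSPN 2 rose and 0 fell at the high dose, Numbl and Hey1, and Hey1 alone rose at the low dose (0.30, SE 0.08, adjusted p = 0.0152).

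Of 22 genes of Rap exchange and signalling, 5 rose and 7 fell in dSPN at the high dose and 4 rose and 5 fell at the low dose, with medians of -0.22 and -0.17. The GTPases Rap2a (1.35, SE 0.12, adjusted p = 1.4e-15) and Rap1b (1.31, SE 0.11, adjusted p = 1.37e-16) rose, and the Rap GTPase activator Sipa1l3 fell by 1.24 (SE 0.12, adjusted p = 2.17e-14) at the high dose. Rap1b, which Rapgef3 loads with GTP, was thus higher while Rapgef3 was lower. In iSPN 2 rose and 1 fell at the high dose, Rap1a and Rap1b higher and Rap2c lower, and Rap1b alone rose at the low dose (0.57, SE 0.14, adjusted p = 0.00589).

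Of 14 genes of the insulin-like growth factor system, 3 rose and 5 fell in dSPN at the high dose and 3 rose and 3 fell at the low dose. Irs2, the adaptor that carries the signal from the receptors, rose by 3.81 (SE 0.19, adjusted p = 3.78e-28), and Stc2 rose by 2.40 (SE 0.39, adjusted p = 4.32e-07). Igfbp4, a second binding protein, was at 7.77 in high-dose dSPN and 10.05 in lesioned saline dSPN, and in iSPN it fell by 0.99 (SE 0.29, adjusted p = 0.0159) at the high dose. Irs2 also rose in iSPN, by 1.26 at the high dose (SE 0.23, adjusted p = 9.56e-05) and by 1.05 at the low dose (SE 0.23, adjusted p = 0.00322). The list's other members in iSPN were not called under levodopa.

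Of 18 genes of mitochondrial fatty acid oxidation, 4 rose and 6 fell in dSPN at the high dose and 3 rose and 3 fell at the low dose. Slc25a20, the carrier that brings acylcarnitines into the matrix, rose by 1.93 (SE 0.17, adjusted p = 7.03e-16) and the reductase Decr1 by 1.34 (SE 0.16, adjusted p = 5.1e-11), while the thioesterase Acot2 fell by 0.98 (SE 0.15, adjusted p = 5.64e-08). In iSPN 2 rose and 2 fell at the high dose and 2 rose and 1 fell at the low dose, and Acot2 fell at the high dose there too (-0.94, SE 0.18, adjusted p = 0.000136). Decr1, named here after its values were seen, fell in iSPN at the high dose (-0.62, SE 0.19, adjusted p = 0.0277), opposite to its rise in dSPN.

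Of 7 genes of the TIF1 family and its heterochromatin partners, 0 rose and 3 fell in dSPN at the high dose, and 2 fell at the low dose. Setdb1, the histone H3 methyltransferase that Trim28 recruits, fell by 1.59 (SE 0.24, adjusted p = 8.09e-08), Trim28 by 0.70 (SE 0.12, adjusted p = 1.58e-06) and Cbx5 by 0.19 (SE 0.08, adjusted p = 0.0437) at the high dose. None was called in iSPN under levodopa. Of 15 SCAN zinc finger genes, 2 rose and 5 fell in dSPN at each dose, with Zkscan8 (-1.70, SE 0.21, adjusted p = 1.01e-10) and Zkscan14 (-1.09, SE 0.21, adjusted p = 1.58e-05) lower and Zkscan6 (0.99, SE 0.22, adjusted p = 0.000125) higher at the high dose. Under levodopa in iSPN only Zkscan6 was called, and it fell at the high dose (-0.77, SE 0.27, adjusted p = 0.0489).

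Beyond the members, the neighbouring ranks were followed into iSPN. Of 11 other genes among the 12 largest falls of either dose in dSPN, 10 were lower in iSPN at the high dose, 1 passed the test (Igfbp4) and 0 passed at the low dose. Of all genes, 47.9% were lower in iSPN at the high dose. There 3.59% fell at the high dose and 1.77% at the low dose.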

How the data were processed

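The authors deposited log2 values for each probe set of an Affymetrix mouse genome array, made with RMA in the affy package, per the submitters' processing notes, with no version given. Of 45101 probe sets, 34958 carried 1 gene symbol in the platform annotation and were used, while 932 with several and 9211 with none were left out. Each gene stood as its probe set with the highest mean, and the test took in 13271 of 18194 genes, those whose mean passed 3.55 (percentile 40 of the probe set means).

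Samples were grouped by line, surgery and drug from the labels. A group means model was fitted over all 77 arrays, 8 groups and 69 residual degrees of freedom with lmFit and eBayes of limma 3.58.1 in R 4.3.3, tested on simulated data. Two-sided p-values were adjusted by Benjamini-Hochberg over all genes of each comparison. A call, or the words rose and fell, needs an adjusted p under 0.05. Each change is a difference of group means in log2, with its SE from the model. Correlations were taken on deviations from group means with 100000 permutations within groups. The 8 members, the gene lists and the motifs were chosen with earlier results of these data known. Named beside the members were the 12 largest falls of each dose, up to 3 called genes per pathway list and comparison and up to 2 per marker list. The alternatives were the run as a fixed or random block, the line's own arrays, array weights, other filters and probe set choices, a trended prior, glial covariates, re-centring and leaving out single arrays.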

Additional observations from a re-analysis of the deposited data

Results flagged for a closer look

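In mock-lesioned dSPN, 1 array stood apart for 2 members each: Trim66 read 4.66 on its lowest array, with the nearest at 5.55, and Hadh read 5.29 on its lowest, with the nearest at 6.78. These were 2 of 40 member and group combinations examined for an array far from the others, and chance alone gives about 1 in 20. Under levodopa every array of a group lay on one side of the saline mean in dSPN and on the other in iSPN for Rapgef3 at the low dose, where the dSPN change minus the iSPN change was -3.28, and for Fam117a at the high dose, where it was -3.27. That difference between lines was not tested, since the dSPN changes chose the genes. For Rapgef3 the iSPN saline mean of 7.04 included arrays at 3.14 and 4.36. Against the saline median of 7.55, 2 of 8 low-dose arrays of iSPN lay below. Leaving out 1 array took the low-dose change of Rapgef3 in iSPN as low as 0.44.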

How the results depend on the processing

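Of 443 tested member changes under the alternatives other than leaving out single arrays, 416 kept direction and side of the threshold, 4 no longer passed, 7 passed newly and 16 changed sign. Leaving out single arrays gave 0 to 1 calls for iSPN lesion against mock, 1 to 2 at the high dose and 0 to 2 at the low dose. Members called in iSPN lesion against mock were 1 (Rapgef3) with run as a random block and 1 with the mean of a gene's probe sets. At the high dose in iSPN the count was 0 with run as a fixed block and 2 with the mean of probe sets. At the low dose it was 0 with the fixed block, with the line's own arrays and within the run that held both groups, the last chosen after seeing the data, and 2 with the mean of probe sets or re-centred arrays. In mock-lesioned dSPN against iSPN it was 1 (Rapgef3) with the mock arrays alone, and the fixed block could not be fitted because the lines share no run. Leaving out 1 array turned the sign of changes that were not called: Hadh (up to 0.16) and Zkscan16 (down to -0.08) in iSPN lesion minus mock, Rapgef3 in iSPN high minus saline (down to -0.0093), Notch2 (up to 0.22), Igfbp5 (up to 0.27) and Hadh (down to -0.22) in iSPN low minus saline, and Trim66 between lines (down to -0.02). It also ended the Trim66 call at the low dose in iSPN in all but 7 of 15 fits. Under the other alternatives the changes that turned sign, none of them called, were as follows. With run as a fixed block they were, in iSPN high minus low, Rapgef3 1.25, Igfbp5 0.22, Hadh 0.0512 and Fam117a -0.83, in iSPN lesion minus mock, Hadh 0.0342 and Zkscan16 -0.35, in iSPN low minus saline, Hadh -0.0541 (also within the run), and in dSPN lesion minus mock, Igfbp5 -0.044 and Fam117a -0.18. With the mean of probe sets they were Notch2 0.0729 and Igfbp5 0.20 in iSPN low minus saline and Notch2 -0.0651 in iSPN high minus low. With array weights they were Hadh 0.0947 and Zkscan16 -0.0062 in iSPN lesion minus mock and Hadh -0.20 in iSPN low minus saline. With glial covariates they were Fam117a -0.14 between lines and Igfbp5 -0.15 in dSPN lesion minus mock, and within the run Hadh 0.15 in iSPN high minus saline. The cause was not tested. Over all genes, calls ranged over 106 to 1291 for iSPN lesion (823 as reported), 249 to 2088 for high (1309), 153 to 904 for low (555), 0 to 158 for high minus low (23) and 1645 to 5262 between lines (2988). Re-centring moved the median of all genes by 0.11 in dSPN high minus mock. Trim66 is too dim for the stricter filter. No paired analysis was possible because replicates were numbered in accession order, which only names the samples, and the labels pair no animals across groups.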
